A study of Mus musculus with 39 samples.

Results

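The masseter, the large chewing muscle of the cheek, was compared after collagenase had been placed in a neighbouring chewing muscle and after collagenase had been placed in the masseter itself. The first group, called the referred masseter here, held 3 masseter libraries from mice given 0.2 to 0.5 U of collagenase 4 times into the temporal muscle (TM) and sampled at day 28. The second group, called the injected masseter, held 3 masseter libraries from mice given the same labelled dose 4 times into the masseter muscle (MM) and sampled at day 38. These 6 libraries were chosen by tissue, treatment label and time label, out of 39 libraries in all and 17 of masseter. All mice were labelled wild-type. The labels used here gave no age, and did not say whether each library came from its own mouse, so p-values measure the spread between libraries, which may be partly technical. No masseter group here had collagenase in the temporal muscle at day 38 or in the masseter at day 28. The injection site and the day therefore changed together and cannot be told apart.

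Referred pain is pain felt away from the tissue that was stimulated, and the series was set up around a referred pain model that starts in the temporal muscle. Collagenase cuts fibrillar collagen and so loosens the connective tissue around muscle fibres. After damage, skeletal muscle is rebuilt by satellite cells, which activate myogenic transcription factors, fuse into new fibres and for a time use embryonic versions of contractile proteins, while macrophages clear debris. The masseter of the mouse is a fast muscle, whose adult fibres are told apart by their myosin heavy chains: Myh4 for type IIb, Myh1 for type IIx, Myh2 for type IIa and Myh7 for slow fibres.

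The other masseter groups served as bystanders, and the values of some of them are given beside many of the results. They were the injected masseter at day 52 (3 libraries), a group with saline in the masseter at day 28 (4 libraries, single-end reads) and one with saline in the masseter at day 38 (4 libraries). All other masseter libraries had paired-end reads. Total counts ran from 18857103 to 21531154 in the referred libraries and from 24982887 to 27985879 in the injected libraries. A second difference also ran along with site and day. In CPM, that is counts scaled to a common library size, Xist (made from the silenced X chromosome) stood at 378 to 493 in the referred masseter and reached 0.124 at most in the injected masseter. The Y-linked Ddx3y stood at 0 to 0.0494 CPM in the referred masseter and at 70.1 to 84.8 CPM in the injected masseter. The saline day 28 libraries had the Xist-high pattern (283 to 332 CPM), and the saline day 38 and injected day 52 libraries had the Ddx3y-high pattern. Genes on chromosomes X and Y are left aside below. For autosomal genes, this pattern cannot be told apart from site and day either. Finally, the parotid gland transcripts Bpifa2, Smr3a and Amy1 together reached 99095 CPM in referred library 1 and 171268 CPM in injected library 3, against 42.6 to 85.9 CPM in the other 2 referred libraries and 62.8 to 78.5 CPM in the other 2 injected libraries. Among the saline libraries, day 28 libraries 1 and 4 held 55268 and 6517 CPM of these transcripts and day 38 library 2 held 40253 CPM, so the saline groups were not free of them either. Counts of called genes are therefore also given without the 2 compared libraries. The muscle label itself was borne out in all 6: the 15 skeletal muscle identity genes summed to 130494 to 148566 CPM in the referred masseter and 145178 to 181682 CPM in the injected masseter.

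Of 14152 autosomal genes tested, 1646 differed between referred and injected masseter at an adjusted p under 0.05 (edgeR's quasi-likelihood test, Benjamini-Hochberg adjustment over all genes tested), which is 11.6%. The referred masseter had 923 of them higher (6.52% of the genes tested) and 723 lower (5.11%). On the log2(TPM + 0.5) scale, limma called 1040 higher and 93 lower. That scale moved the median difference of all genes from -0.02 to 0.21 log2 units, and with the library medians made equal it called 610 higher and 539 lower. Differences of at least 1 log2 unit were seen in 218 of the genes called higher and in 187 of those called lower. The count rested on all 6 libraries: it was 850 without referred library 1, 749 without referred library 2, 1232 without referred library 3, and 983, 1010 and 904 without injected libraries 1, 2 and 3. Without both libraries that held gland transcripts it was 340, with 155 higher and 185 lower, and 334 of these were among the 1646. Of the 82 single genes tracked through the alternatives, 33 lost their call when both libraries were left out, and none changed direction. With the injected masseter of day 52 in place of day 38 it was 535 (3.78%), with 184 higher (1.3%) and 351 lower (2.48%).

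The saline groups differ in day, in read layout and in the Xist pattern, but got no collagenase, and they share no library with the comparison above. Of the 14152 genes, 3474 (24.5%) differed between saline day 28 and saline day 38, with 12.8% higher and 11.8% lower in saline day 28. Of the 723 genes lower in the referred masseter, 422 (58.4%) were also lower in saline day 28 than in saline day 38, which is 25.4% of the 1663 genes lower there, and 9 went the opposite way. Of the 923 genes higher in the referred masseter, 282 (30.6%) were also higher in saline day 28, which is 15.6% of the 1811 genes higher there, and 14 went the opposite way. When the saline difference was subtracted from the collagenase difference in the same fit, a step added after the data had been seen, 305 genes (2.16%) were past the threshold, 161 with a difference above 0 (1.14%) and 144 below 0 (1.02%). That count was 160 without saline day 28 library 4, and 156, 781, 103 and 122 without saline day 38 libraries 1, 2, 3 and 4, of which library 2 held gland transcripts. The count of 3474 was 2198 without saline day 38 library 3. Day, sex-linked pattern and read layout changed together between the saline groups and cannot be told apart.

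**Figure D1:**
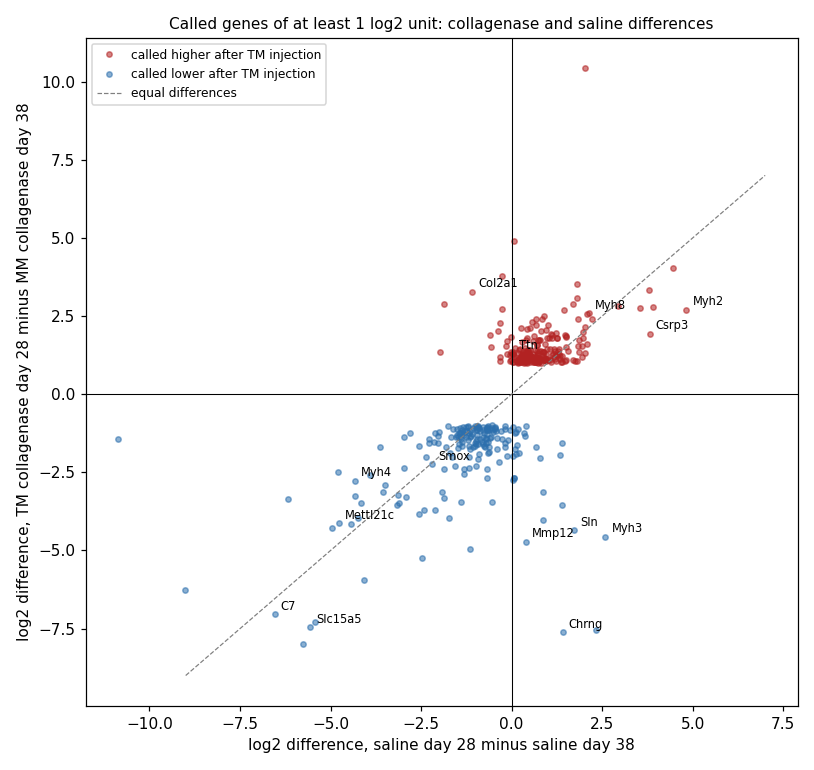
Each point is 1 of the 405 autosomal genes called with a difference of at least 1 log2 unit. The vertical axis is the log2 difference of TM collagenase day 28 (referred) minus MM collagenase day 38 (injected), the horizontal axis is the log2 difference of saline day 28 minus saline day 38, and the dashed line marks equal differences; Myh4, C7 and Slc15a5 lie low on both axes, Myh2 and Csrp3 high on both, and Chrng, Myh3, Sln and Mmp12 are low on the vertical axis and above 0 on the horizontal one.

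The adult fast myosins were divided up differently. Myh4, the type IIb heavy chain (chromosome 11, 67237812 to 67260447, mm10), had 4965, 4849 and 2874 CPM in the 3 referred libraries, against 29043, 31778 and 25992 CPM in the 3 injected libraries. The groups did not overlap, as was the case for 37.6% of all genes tested, and Myh4 fell by 2.77 ± 0.32 on the log2 scale (standard error, adjusted p = 0.00025). Myh2, the type IIa heavy chain (chromosome 11, 67171027 to 67197517), had 2540, 2376 and 3159 CPM in the referred masseter, against 595, 340 and 310 CPM in the injected masseter. It rose by 2.70 ± 0.41 log2 units (adjusted p = 0.00146). Myh8, the perinatal heavy chain, had 4756, 3566 and 3349 CPM in the referred masseter and 1124, 430 and 392 CPM in the injected masseter, a rise of 2.58 ± 0.38 log2 units (adjusted p = 0.00122), and of 3.24 without injected library 1. Myh1, the type IIx heavy chain, had 35486, 35979 and 28776 CPM in the referred masseter and 20575, 12973 and 10955 CPM in the injected masseter. Its rise of 1.17 ± 0.30 log2 units (adjusted p = 0.0202) missed the threshold without referred library 1 or 2 or injected library 2 or 3 (adjusted p 0.0648 to 0.083). The slow chain Myh7 stayed at 3.46 to 7.03 CPM in the referred masseter and 1.89 to 3.98 CPM in the injected masseter, with overlap (adjusted p = 0.207).

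On the length-corrected TPM scale of the deposited files, Myh1 made up 75.8% ± 1.29 of the summed TPM of 6 myosin heavy chain genes in the referred masseter and 32.6% ± 6.47 in the injected masseter (SD, n = 3 each). Myh4 made up 9.43% ± 1.65 of it in the referred masseter and 65.0% ± 7.51 in the injected masseter. So IIx was the leading heavy chain transcript in all 3 referred libraries, and IIb in all 3 injected libraries. The bystander groups were split likewise. Myh1 was 69.3% ± 6.03 of the sum in saline day 28 (n = 4), 33.1% ± 12.8 in injected day 52 (n = 3) and 38.1% ± 7.00 in saline day 38 (n = 4). Myh4 differed by -4.33 log2 units between saline day 28 and saline day 38 and Myh2 by 4.82, both larger than the differences between referred and injected masseter.

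**Figure D2:**
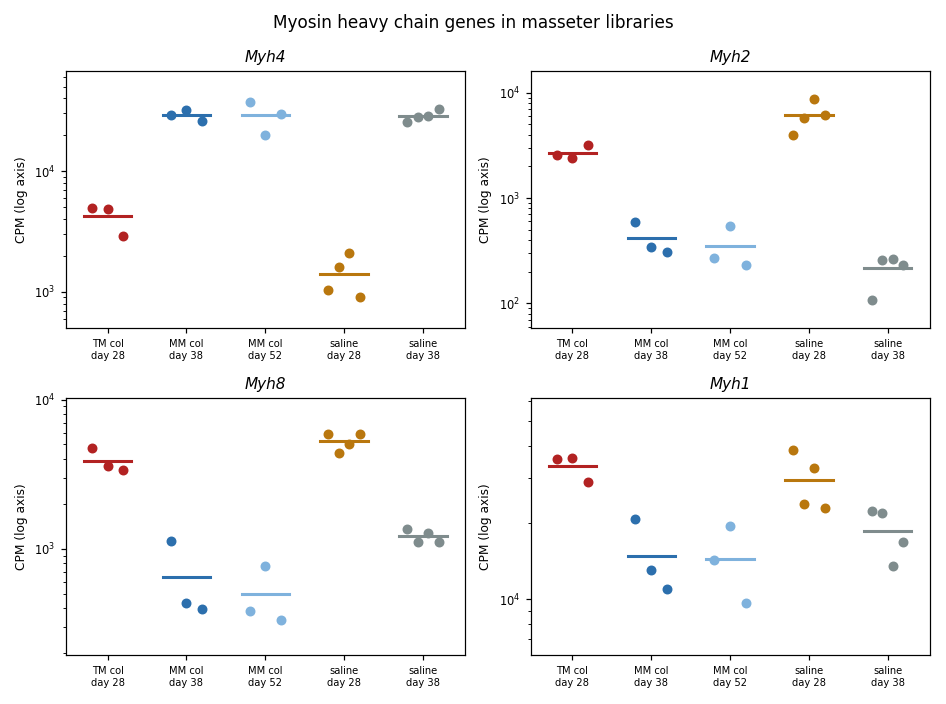
CPM of 4 myosin heavy chain genes on log axes, 1 point per library and a line at each group's mean. Groups from left to right are referred (TM col day 28), injected (MM col day 38), injected at day 52, saline day 28 and saline day 38; for Myh4, Myh2 and Myh8 the referred and saline day 28 libraries stand together, apart from the other 3 groups.

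Other genes of the fast fibre were lower as well. Of 14 fast fibre genes tested, 2 were called higher (Myh1 and Myh2) and 6 lower, against 6.52% and 5.11% of all genes, and with the libraries that held gland transcripts left out 1 was higher and 2 were lower. On the log2(TPM + 0.5) scale 2 were higher and 2 lower. Mybpc2, the fast myosin binding protein, had 3022, 2887 and 2119 CPM in the referred masseter, against 6487, 6047 and 5527 CPM in the injected masseter (log2 difference -1.17 ± 0.21, adjusted p = 0.00396). Pvalb, the calcium buffer of fast fibres, had 3257, 3795 and 3140 CPM in the referred masseter and 6801, 7519 and 5424 CPM in the injected masseter (-0.95 ± 0.21, adjusted p = 0.0101). Neither gene's groups overlapped. Of 14 slow fibre genes, 5 were lower (Sln, Tnni1, Pln, Atp2a2 and Tpm3) and 1, Casq2, was higher, against 5.11% and 6.52% of all genes. The list did not move as a whole, with 8 of the 14 below 0 and 6 above. Myh7, Myh6, Myl2, Myl3 and Myoz2 differed by 0.76, 0.95, 0.85, 0.76 and 0.51 log2 units without passing the test. Sln and Tnni1 are taken up again below. Without the libraries that held gland transcripts 2 were lower and none higher, on the log2(TPM + 0.5) scale 2 were lower, and with injected day 52 in place of day 38 1 was lower. The slow fibre list had a median of -0.54 log2 units between referred and injected masseter and of 1.43 between saline day 28 and saline day 38. Casq2, the cardiac and slow fibre calsequestrin, had 111, 90.7 and 125 CPM in the referred masseter and 69.2, 32.0 and 28.1 CPM in the injected masseter (1.34 ± 0.31, adjusted p = 0.0139), and missed the threshold without injected library 2 or 3 (adjusted p = 0.061 and 0.0578). Csrp3, a Z-disc protein tied to stretch sensing, had 464, 352 and 438 CPM in the referred masseter and 161, 57.3 and 111 CPM in the injected masseter (1.93 ± 0.40, adjusted p = 0.00807). In the saline groups all 4 genes differed in the same directions, by -1.30, -0.76, 1.85 and 3.81 log2 units for Mybpc2, Pvalb, Casq2 and Csrp3.

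Several enzymes of sugar breakdown were lower in the referred masseter. Of 28 genes of glycolysis, glycogen and lactate handling tested, 11 were lower in the referred masseter and 1, Ldhb, was higher, against 5.11% and 6.52% of all genes; the list's median log2 difference was -0.48, against -0.02 over all genes tested. On the log2(TPM + 0.5) scale 3 were lower, with library medians made equal 8 were lower, and without the libraries holding gland transcripts 5 were lower. Aldoa, the muscle aldolase, had 8038, 8395 and 7495 CPM in the referred masseter and 15785, 17247 and 15664 CPM in the injected masseter (-1.03 ± 0.17, adjusted p = 0.00205), and 9645 to 13984 CPM in injected day 52. Gpi1, glucose-6-phosphate isomerase, had 517, 568 and 574 CPM in the referred masseter and 960, 935 and 925 CPM in the injected masseter (-0.77 ± 0.09, adjusted p = 0.000305). Pgam2, the muscle phosphoglycerate mutase, had 1107, 1035 and 1127 CPM in the referred masseter and 1840, 2177 and 2062 CPM in the injected masseter (-0.90 ± 0.15, adjusted p = 0.00275). The groups of these 3 genes did not overlap. Their saline differences were -0.92, -0.71 and -1.16 log2 units. Gapdh fell by 0.86 ± 0.14 (adjusted p = 0.00215), with 3870, 4174 and 4119 CPM in the referred masseter and 7058, 7530 and 7485 CPM in the injected masseter. Its single-end saline day 28 libraries were at 631 to 954 CPM. How reads were shared between Gapdh and its pseudogenes was not tested. Once the saline difference was subtracted, none of the 28 was lower and 2 were higher, and with injected day 52 in place of day 38 none of the 28 was lower.

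Mitochondrial genes gave few calls. None of 42 autosomal oxidative phosphorylation subunits passed edgeR's test, 6 had an unadjusted p under 0.05, and DESeq2 called 1 higher and 1 lower; none was called without the libraries holding gland transcripts, and their log2 differences lay between -0.24 and 0.38. Of 30 genes of fatty acid uptake and oxidation, 3 were higher and none lower, against 6.52% and 5.11% of all genes. None of the 30 was called without the libraries holding gland transcripts. Ppargc1a, a coactivator that drives mitochondrial gene expression, had 89.6, 80.3 and 108 CPM in the referred masseter and 46.7, 42.9 and 47.0 CPM in the injected masseter (1.02 ± 0.24, adjusted p = 0.0141). The groups did not overlap, but the call missed the threshold without referred library 3 (adjusted p = 0.0506) or injected library 2 (adjusted p = 0.0525). Its relative Ppargc1b had 32.8, 23.2 and 35.8 CPM in the referred masseter and 20.4, 13.6 and 15.9 CPM in the injected masseter (0.88 ± 0.26, adjusted p = 0.0403), and missed the threshold without referred library 1 or 3 or injected library 2 or 3 (adjusted p 0.11 to 0.14). Ttn, the giant spring protein of the sarcomere, had 9567, 6519 and 4635 CPM in the referred masseter and 3494, 2790 and 2136 CPM in the injected masseter (1.30 ± 0.26, adjusted p = 0.00627), while the saline groups differed by 0.04 log2 units (adjusted p = 0.923).

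A set of genes was near the floor in the referred masseter and readily counted in the injected masseter. Slc15a5, a member of the peptide transporter family (chromosome 6, 137983586 to 138079916), had 0.0983, 0.0494 and 0.0448 CPM in the referred masseter, against 8.79, 14.8 and 12.8 CPM in the injected masseter (-7.45 ± 1.16, adjusted p = 0.00158). C7, a complement component of the membrane attack complex, had 0.0983, 0.0987 and 0.0896 CPM in the referred masseter and 3.77, 9.75 and 26.4 CPM in the injected masseter (-7.04 ± 0.99, adjusted p = 0.000904; -6.06 without injected library 3; limma voom gave an adjusted p of 0.106). Tmem132b, a membrane protein gene, had 0.147, 0.0987 and 0 CPM in the referred masseter and 19.8, 25.5 and 19.6 CPM in the injected masseter (-7.98 ± 0.98, adjusted p = 0.000381; -8.69 and -7.39 without referred libraries 1 and 3; limma voom gave an adjusted p of 0.0742). The injected groups of these 3 genes stood far above the referred groups in every library. A lack of overlap was a condition of the rule that chose these 3 genes. Odf3l2, Slc30a2 (a zinc transporter), Mettl21c (a muscle protein methyltransferase) and Trpm1 (a TRP family cation channel) were lower by smaller differences, and Mettl21c was readily counted in the referred masseter too. Slc30a2 had 0.983, 0.592 and 0.94 CPM in the referred masseter and 14.4, 13.8 and 20.7 CPM in the injected masseter (-4.27 ± 0.42, adjusted p = 6.78e-05). Mettl21c had 10.5, 2.86 and 4.16 CPM in the referred masseter and 85.9, 121 and 99.8 CPM in the injected masseter (-4.13 ± 0.56, adjusted p = 0.000766), a difference of -4.87 without referred library 1. Odf3l2 and Trpm1 fell by 5.24 ± 0.95 and 3.97 ± 0.63 (adjusted p = 0.00396 and 0.00184).

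All 7 of these genes were also lower in saline day 28 than in saline day 38, with log2 differences of -2.49 for Odf3l2 and between -4.24 and -6.54 for the other 6. These 7 are only a part of the large falls. Chrng, which was near the floor too, and Myh3, Sln and Mmp12 also fell. Their saline differences were above 0, and they are described further below. For example, C7 had 0 to 0.182 CPM in the 4 saline day 28 libraries and 3.78 to 20.1 CPM in the 4 saline day 38 libraries. None of the 7 was past the threshold after the saline difference was subtracted.

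A pair of polyamine genes was lower in the same way. Polyamines are small charged molecules that cells make by way of S-adenosylmethionine decarboxylase (Amd1 and its near-identical copy Amd2) and take apart by way of spermine oxidase (Smox). Of 11 polyamine genes tested 2 were lower and none higher, against 5.11% and 6.52% of all genes, and the 2 were also called without the libraries that held gland transcripts. Smox had 24.7, 21.8 and 19.1 CPM in the referred masseter, against 83.1, 109 and 118 CPM in the injected masseter (-2.24 ± 0.29, adjusted p = 0.000541). Amd2 fell by 3.48 ± 0.65 (adjusted p = 0.00471), with a difference of -4.67 without referred library 2, but reads of Amd1 and Amd2 cannot be assigned reliably: referred library 2 had 108 CPM on Amd2 and 0.0494 CPM on Amd1, whereas referred library 3 had 18.0 and 76.3. The sum of the pair was 93.3, 108 and 94.3 CPM in the referred masseter and 754, 1093 and 700 CPM in the injected masseter. In saline day 28 the sum was 83.1 to 114 CPM, and in saline day 38 it was 576 to 1369 CPM.

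Genes of muscle regeneration were higher in the injected masseter, and several of them stood above both saline groups there. Of 19 myogenic regeneration genes tested, 8 were lower in the referred masseter (Chrng, Gm7325, Tmem8c, Myh3, Myl4, Tnnt2, Actc1 and Myog) and 1, the perinatal Myh8, was higher, against 5.11% and 6.52% of all genes; the median log2 difference was -0.69, against -0.02 over all genes. The same counts were found without both libraries that held gland transcripts, and 4 were lower after the saline difference was subtracted. With limma voom 4 were lower, on the log2(TPM + 0.5) scale 5, and with injected day 52 in place of day 38 3; without injected library 1 3 were higher and 6 lower. Myogenic transcription factors bind E-boxes, the sequence CANNTG, whose outer letters read the same on both strands. For Chrng and Myog, which fell together, the 250 bases before the RefSeq start are given with each CANNTG in capitals, since myogenic factors are known to act through this stretch of both genes (GRCm38.p6, plus strand, 5′ to 3′).
Chrng, chr1:87205561-87205810: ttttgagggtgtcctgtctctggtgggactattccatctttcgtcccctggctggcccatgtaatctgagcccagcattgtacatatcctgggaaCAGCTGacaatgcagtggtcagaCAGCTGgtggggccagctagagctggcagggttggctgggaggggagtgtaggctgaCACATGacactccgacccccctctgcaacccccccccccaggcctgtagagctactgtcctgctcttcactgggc
Myog, chr1:134289754-134290003: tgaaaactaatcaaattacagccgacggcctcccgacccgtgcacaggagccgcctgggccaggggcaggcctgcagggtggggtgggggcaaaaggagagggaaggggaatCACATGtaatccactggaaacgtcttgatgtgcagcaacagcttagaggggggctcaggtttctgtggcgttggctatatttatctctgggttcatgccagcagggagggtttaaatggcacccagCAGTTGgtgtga
The Chrng sequence held 3 matches, a number reached by 12.2% of 32851 RefSeq promoter windows of this length, and the Myog sequence held 2, a number reached by 31.8%. At least 1 match was found in 66.2% of all windows. A match describes the letters only.

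Chrng encodes the gamma subunit of the acetylcholine receptor, which fetal and denervated or regrowing fibres use in place of the adult epsilon subunit (chromosome 1, 87205811 to 87211835). It had 0.0491, 0 and 0.0448 CPM in the referred masseter, 2 counts in all, against 18.1, 2.30 and 1.65 CPM in the injected masseter, 532 counts in all. The ratio of injected to referred masseter was 230.5 with an exact 95% interval of 63.5 to 1908, which covers counting error only (adjusted p = 0.00146; limma voom gave an adjusted p of 0.0635). Without injected library 1, which held most of the counts, 96 counts remained in the injected masseter and the ratio was 62.25, with an interval of 16.8 to 521. Gm7325, which RefSeq names Mymx and which encodes the small fusion protein myomixer, had 1 count in the 3 referred libraries together and 5.60, 4.36 and 2.07 CPM in the injected masseter, 291 counts in all (adjusted p = 0.000541). Its partner Tmem8c, named Mymk in RefSeq and encoding the fusion protein myomaker, had 0.147, 0.296 and 0.448 CPM in the referred masseter and 21.9, 3.99 and 2.52 CPM in the injected masseter (-4.96 ± 0.90, adjusted p = 0.00402), and the difference was -3.42 without injected library 1 (adjusted p = 0.0151). For all 3 genes the groups did not overlap, as for 37.6% of all genes tested. Both saline groups were below the injected masseter in every library for these 3 genes.

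Myh3, the embryonic heavy chain, had 1.77, 2.42 and 2.15 CPM in the referred masseter, against 137, 8.39 and 5.20 CPM in the injected masseter (-4.57 ± 1.00, adjusted p = 0.01). Injected library 1 carried most of that size: without it the difference was -1.68 (adjusted p = 0.0445). The call was also lost with limma voom (adjusted p = 0.191), on the log2(TPM + 0.5) scale (adjusted p = 0.0859) and in a fit of the 6 libraries alone (adjusted p = 0.0694). Myl4, the embryonic and atrial light chain, had 2.85, 3.01 and 3.31 CPM in the referred masseter and 120, 19.5 and 10.0 CPM in the injected masseter (-4.03 ± 0.69, adjusted p = 0.00286), and -2.27 without injected library 1. Tnni1, the slow and developmental troponin I, had 1.62, 1.09 and 2.10 CPM in the referred masseter and 45.9, 6.17 and 3.80 CPM in the injected masseter (-3.53 ± 0.72, adjusted p = 0.00726), and -1.63 without that library; the call was lost with limma voom (adjusted p = 0.107) and in the 6 libraries alone (adjusted p = 0.0632). Myog, the transcription factor myogenin, had 6.09, 7.11 and 7.34 CPM in the referred masseter and 44.3, 18.5 and 12.6 CPM in the injected masseter (-1.88 ± 0.42, adjusted p = 0.0117), with an adjusted p of 0.0511 without referred library 1 and 0.0586 without injected library 1. In all 4 genes injected library 1 was the highest of the 6 libraries, and the other 2 injected libraries still stood above all 3 referred ones. Saline day 28 reached 6.54 CPM for Myh3, above injected library 3, while for the other 3 genes every saline library was below the injected ones in CPM. The length-corrected TPM scale differed for Tnni1 and Myh3. For Tnni1, saline day 28 libraries 1 and 4 had 5.55 and 6.22 TPM, above injected library 3 at 4.81 TPM. For Myh3, every saline day 28 library, at 1.16 to 2.21 TPM, was above injected library 3 at 0.98 TPM. The highest of them, library 2, was also above injected library 2 at 2 TPM. Actc1, the cardiac actin that immature fibres use, had 26.3, 38.9 and 35.0 CPM in the referred masseter and 280, 107 and 125 CPM in the injected masseter (-2.35 ± 0.37, adjusted p = 0.00157), but its saline day 38 libraries were also at 107 to 254 CPM.

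Sln, encoding sarcolipin, a small inhibitor of the sarcoplasmic calcium pump, was more even across libraries. It had 0.835, 1.58 and 1.12 CPM in the referred masseter, against 31.8, 27.5 and 13.6 CPM in the injected masseter (-4.36 ± 0.50, adjusted p = 0.00025). Saline day 28 had 1.45 to 2.58 CPM and saline day 38 had 0.301 to 1.19 CPM, so the referred masseter lay among the saline libraries, and the difference after subtracting the saline difference was -6.09 (adjusted p = 0.000184). Mmp12, the macrophage elastase, had 0.147, 0.197 and 0.0448 CPM in the referred masseter and 1.78, 3.82 and 4.92 CPM in the injected masseter (-4.71 ± 0.58, adjusted p = 0.000409). Both saline groups were at 0.0501 to 0.218 CPM, and the saline-subtracted difference was -5.12 (adjusted p = 0.00592). Gdf15, a stress cytokine, had 0.246, 0.444 and 0.358 CPM in the referred masseter and 2.45, 2.84 and 1.86 CPM in the injected masseter (-2.75 ± 0.50, adjusted p = 0.0043). Its saline libraries were at 0.0701 to 0.340 CPM, and the saline-subtracted difference of -2.79 had an adjusted p of 0.0557. Chrna9, a nicotinic receptor subunit, had 6.78, 2.81 and 5.15 CPM in the referred masseter and 1.99, 1.48 and 1.65 CPM in the injected masseter without passing the test (1.52 ± 0.53, adjusted p = 0.0773); DESeq2 called it (adjusted p = 0.0305), as did a fit of the 6 libraries alone (adjusted p = 0.0337).

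**Figure D3:**
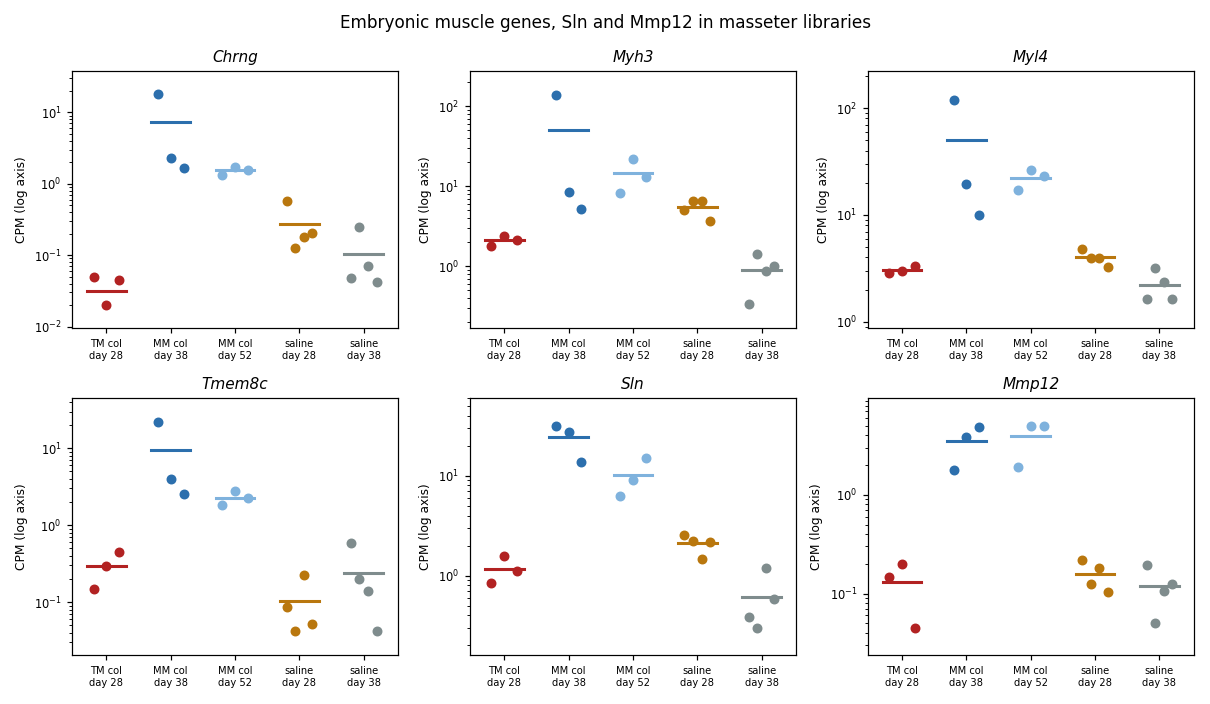
CPM of Chrng, Myh3, Myl4, Tmem8c, Sln and Mmp12 on log axes, 1 point per library and a line at each group's mean, with values under 0.02 CPM drawn at 0.02. Groups from left to right are referred (TM col day 28), injected (MM col day 38), injected at day 52, saline day 28 and saline day 38; the injected libraries stand above the referred ones in every panel, and for Chrng, Myh3, Myl4 and Tmem8c 1 injected library stands far above the other 2.

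Several macrophage markers were lower in the referred masseter. Of 23 tested, 8 were called lower and none higher, against 5.11% and 6.52% of all genes. All 23 had a log2 difference below 0, and the list's median was -1.21, against -0.02 over all genes. In bulk muscle, fewer cells of a type and less RNA per cell cannot be told apart. The markers summed to 205 to 333 CPM in the referred masseter and 369 to 742 CPM in the injected masseter, without overlap; injected day 52 had 970 to 2571 CPM, saline day 28 had 147 to 232 CPM and saline day 38 had 262 to 974 CPM. With injected day 52 in place of day 38, 6 of the 23 were lower, against 2.48% of all genes. The count hung on single libraries: it was 0, 3 and 4 without referred libraries 1, 2 and 3, it was 1, 13 and 3 without injected libraries 1, 2 and 3, and it was 0 without both libraries that held gland transcripts, where 22 of the 23 were below 0. On the log2(TPM + 0.5) scale it was 2, and with library medians made equal 5. Gpnmb, a glycoprotein of lipid-laden and debris-clearing macrophages, had 3.83, 5.04 and 4.70 CPM in the referred masseter, against 26.5, 17.5 and 22.6 CPM in the injected masseter (-2.29 ± 0.53, adjusted p = 0.0129) and 8.36 to 31.7 CPM in injected day 52, and missed the threshold without referred library 1 (adjusted p = 0.0563). Trem2, a lipid receptor of macrophages, had 0.59, 0.889 and 0.313 CPM in the referred masseter and 6.55, 2.59 and 2.52 CPM in the injected masseter (-2.70 ± 0.64, adjusted p = 0.0156), and missed the threshold without referred library 1 or 3 or injected library 1 (adjusted p 0.0592 to 0.071), where the last left a difference of -2.09; injected day 52 had 0.697 to 3.66 CPM. Lgals3, encoding galectin-3, had 7.47, 12.3 and 9.31 CPM in the referred masseter and 50.6, 17.7 and 29.7 CPM in the injected masseter (-1.75 ± 0.40, adjusted p = 0.0131), and missed the threshold without referred library 1 or injected library 1 (adjusted p = 0.0583 and 0.0629).

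The saline groups also differed in these markers. The macrophage list had a median of -1.09 log2 units between saline day 28 and saline day 38, with 12 of its members called, against 24.5% of all genes, and none of the 23 was past the threshold after the saline difference was subtracted. The saline differences of Gpnmb, Trem2 and Lgals3 were -0.97, -0.69 and 0.08 log2 units, and none of the 3 passed the test.

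Complement genes, many of them made by macrophages and fibroblasts in tissue, were also lower: 7 of 18 tested (C1qa, C1qb, C1qc, C2, C4b, C7 and Cfb), with none higher, against 5.11% and 6.52% of all genes, and a median of -1.42. Without both libraries that held gland transcripts the count was 2, with limma voom 4, on the log2(TPM + 0.5) scale 3, with injected day 52 in place of day 38 8, and 2 to 6 with any one library left out. C4b, a component of the classical pathway, had 8.40, 8.15 and 8.51 CPM in the referred masseter, against 26.4, 48.4 and 47.9 CPM in the injected masseter (-2.29 ± 0.35, adjusted p = 0.0015), and 26.4 to 85.3 CPM in injected day 52. Cfb, factor B of the alternative pathway, had 2.26, 2.07 and 2.78 CPM in the referred masseter and 8.83, 10.8 and 12.7 CPM in the injected masseter (-2.18 ± 0.53, adjusted p = 0.0174), and missed the threshold without referred library 1 or 2 or injected library 3 (adjusted p 0.0565 to 0.0762). C1qb, part of the recognition molecule of the classical pathway, had 11.2, 9.63 and 13.2 CPM in the referred masseter and 52.1, 17.5 and 43.9 CPM in the injected masseter (-1.74 ± 0.45, adjusted p = 0.022), and missed the threshold without referred library 1 or 2 or injected library 1 or 3 (adjusted p 0.0711 to 0.0923). No complement gene was past the threshold after the saline difference was subtracted. Serpina3n, an acute-phase protease inhibitor, had 0.491, 0.346 and 0.716 CPM in the referred masseter and 6.14, 7.94 and 10.7 CPM in the injected masseter (-3.97 ± 0.55, adjusted p = 0.00084). In other immune lists, 4 of 26 cytokines and chemokines were lower, with 21 of the 26 below 0 and a median of -0.43 log2 units. So were 2 of 31 interferon response genes and 1 of 10 genes of class II antigen presentation. None was higher in these 3 lists, against 5.11% of all genes lower and 6.52% higher. The interferon share was close to that of all genes. Without both libraries that held gland transcripts none of these was called. The class II gene was Ctss. Ctss, the antigen-processing protease cathepsin S, had 10.0, 9.28 and 8.02 CPM in the referred masseter and 49.7, 21.9 and 36.7 CPM in the injected masseter (-1.99 ± 0.57, adjusted p = 0.0375), a call kept only when injected library 2 was the library left out.

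Several vessel genes were lower in the referred masseter. Of 18 endothelial and pericyte markers, 8 were lower and none higher, against 5.11% and 6.52% of all genes. The number lower was 6 without both libraries that held gland transcripts, 1 on the log2(TPM + 0.5) scale, 8 with library medians made equal, and 0 with injected day 52 in place of day 38. Acta2, the smooth muscle actin, had 86.1, 77.2 and 102 CPM in the referred masseter, against 187, 246 and 183 CPM in the injected masseter (-1.21 ± 0.20, adjusted p = 0.00215). Myh11, the smooth muscle myosin, had 89.6, 80.9 and 85.5 CPM in the referred masseter and 138, 223 and 149 CPM in the injected masseter (-0.99 ± 0.19, adjusted p = 0.00578). Pecam1, an endothelial junction protein, had 147, 128 and 162 CPM in the referred masseter and 244, 259 and 190 CPM in the injected masseter (-0.67 ± 0.12, adjusted p = 0.00396). The smooth muscle pair was past the threshold after subtracting the saline difference, with values of -1.33 for Acta2 (adjusted p = 0.0222) and -1.09 for Myh11 (adjusted p = 0.0445), whereas Pecam1 did not (-0.24, adjusted p = 0.393). Col18a1, the basement membrane collagen from which endostatin is cut, had 22.2, 18.3 and 23.4 CPM in the referred masseter and 92.5, 42.6 and 47.4 CPM in the injected masseter (-1.51 ± 0.24, adjusted p = 0.00176). Vash2, encoding vasohibin 2, which acts on vessels and on tubulin, had 2.21, 1.97 and 1.75 CPM in the referred masseter and 32.2, 25.5 and 20.6 CPM in the injected masseter (-3.72 ± 0.56, adjusted p = 0.00135). Vegfa, the main vascular growth factor, went the other way, with 465, 428 and 427 CPM in the referred masseter and 177, 167 and 129 CPM in the injected masseter (1.48 ± 0.20, adjusted p = 0.000813). The 11 masseter libraries outside the comparison had between 161 and 338 CPM of Vegfa, a gene named after its values were seen.

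**Figure D4:**
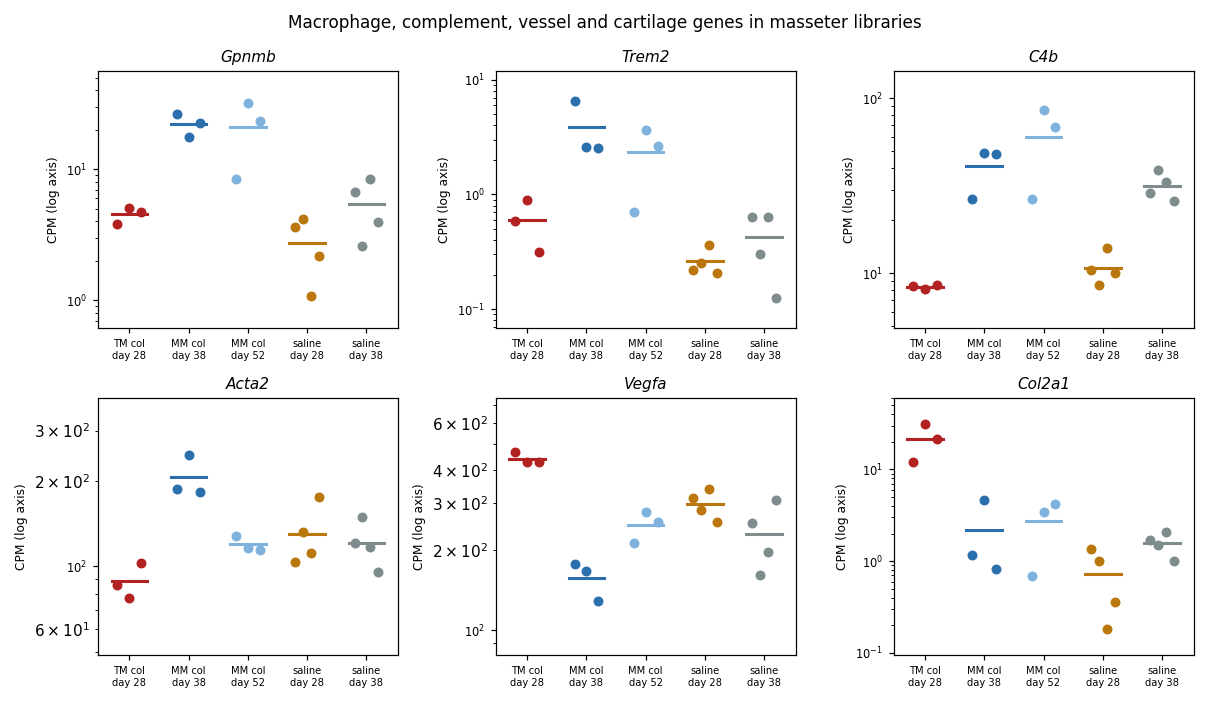
CPM of Gpnmb, Trem2, C4b, Acta2, Vegfa and Col2a1 on log axes, 1 point per library and a line at each group's mean. Groups from left to right are referred (TM col day 28), injected (MM col day 38), injected at day 52, saline day 28 and saline day 38; referred libraries lie below injected ones for the first 4 genes and above all other groups for Vegfa and Col2a1.

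No collagen gene in the list of fibrillar collagens and collagen processing passed edgeR's test. Of the 25 genes tested, 1 (the lysyl hydroxylase Plod1) was lower and none higher, against 5.11% and 6.52% of all genes. DESeq2 called 3 lower and 1 higher, and without the libraries that held gland transcripts 1 was lower as well. The list's median was -0.21 log2 units. Between saline day 28 and saline day 38 its median was -0.93, with 16 of the 25 called, against 24.5% of all genes. Col1a1 had 672, 1580 and 1681 CPM in the referred masseter and 1207, 1091 and 653 CPM in the injected masseter, with overlap, and the 95% interval of its log2 difference ran from -0.96 to 1.79 (adjusted p = 0.753). Col3a1 had 543, 625 and 948 CPM in the referred masseter and 1552, 808 and 849 CPM in the injected masseter, with an interval from -1.61 to 0.41 (adjusted p = 0.464). These intervals leave room for differences of more than 1 log2 unit in at least one direction. Among 22 metalloproteinases and inhibitors, 3 (Mmp12, Mmp3 and Mmp19) were lower and none was higher, against 5.11% and 6.52% of all genes. Without the libraries that held gland transcripts 1 was lower. Mmp3, encoding stromelysin, had 0.983, 0.889 and 1.03 CPM in the referred masseter and 3.69, 4.24 and 4.42 CPM in the injected masseter (-2.08 ± 0.51, adjusted p = 0.0166), and missed the threshold without referred library 1 or 2 (adjusted p = 0.0586 and 0.0707). Mmp19 had 3.64, 3.11 and 3.49 CPM in the referred masseter and 9.99, 9.33 and 10.6 CPM in the injected masseter (-1.55 ± 0.32, adjusted p = 0.00792). Of 23 matricellular and elastic fibre genes, 1 was lower and none higher, against 5.11% and 6.52% of all genes. It was Fbln2, an elastic fibre protein (-0.67 ± 0.16, adjusted p = 0.0141). Fbln2 missed the threshold without referred library 2 or injected library 1 (adjusted p = 0.0725 and 0.0614). None of the 23 was called without both libraries that held gland transcripts.

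Pain-related genes changed in a few members. Of 38 pain mediators and receptors tested, 1 was higher and 7 were lower in the referred masseter, against 6.52% and 5.11% of all genes. On the log2(TPM + 0.5) scale 1 was higher and none lower, and with library medians made equal none was higher and 6 were lower. Bdnf, a neurotrophin, was the gene called higher, with 4.22, 3.31 and 4.66 CPM in the referred masseter, against 0.8292, 0.946 and 0.867 CPM in the injected masseter (2.20 ± 0.57, adjusted p = 0.0231). The groups did not overlap, yet the call was lost without any one library other than referred library 2 (adjusted p 0.0598 to 0.0784), and saline libraries ranged from 0.415 to 3.76 CPM. Hrh1, the histamine H1 receptor, had 0.59, 0.642 and 0.716 CPM in the referred masseter and 1.53, 1.48 and 1.69 CPM in the injected masseter (-1.26 ± 0.27, adjusted p = 0.00844). Edn1, encoding the vasoconstrictor endothelin 1, had 3.19, 2.52 and 2.28 CPM in the referred masseter and 5.89, 5.55 and 4.30 CPM in the injected masseter (-0.98 ± 0.25, adjusted p = 0.0202), and missed the threshold without referred library 2 or 3 or injected library 1 or 2 (adjusted p 0.0618 to 0.0795). Ptgs1, the constitutive cyclooxygenase, had 5.35, 6.86 and 6.27 CPM in the referred masseter and 9.41, 11.1 and 8.14 CPM in the injected masseter (-0.63 ± 0.17, adjusted p = 0.0275), and missed the threshold without any one library other than injected library 3 (adjusted p 0.0509 to 0.113). The rest of the 7 genes called lower were Tacr1, F2rl1, Gfra2 and Ramp2. Tacr1 fell by 3.45 ± 0.97 (adjusted p = 0.0332) and F2rl1 by 1.64 ± 0.50 (adjusted p = 0.0482). Gfra2 fell by 0.73 ± 0.20 (adjusted p = 0.0276) and Ramp2 by 0.53 ± 0.14 (adjusted p = 0.0285). Without both libraries that held gland transcripts none of the 38 was higher and 1 was lower, and with any one library left out 1 to 5 were lower.

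Several other mediators often named in muscle pain did not pass the test. Ptgs2, the inducible cyclooxygenase, had 0.737, 0.889 and 0.761 CPM in the referred masseter and 0.498, 0.658 and 0.454 CPM in the injected masseter, with a 95% interval from -0.30 to 1.43 log2 units (adjusted p = 0.419). Ccl2, a monocyte chemokine, had 0.344, 0.741 and 1.70 CPM in the referred masseter and 2.20, 0.905 and 1.28 CPM in the injected masseter, with an interval from -2.34 to 1.05 (adjusted p = 0.673). Calca, encoding the neuropeptide CGRP, was at 0 to 0.0896 CPM in the referred masseter and 0 to 0.123 CPM in the injected masseter, too few counts for a comparison, and Il6 fell below the filter on low counts. The heat and capsaicin receptor Trpv1 had 0.444 to 0.540 CPM in the referred masseter and 0.330 to 0.622 CPM in the injected masseter (adjusted p = 0.998). Of 38 sensory and pain ion channels, 1 was higher and 1 lower, against 6.52% and 5.11% of all genes. None was called without the libraries that held gland transcripts. P2rx6, an ATP-gated channel subunit, had 25.6, 26.1 and 23.6 CPM in the referred masseter and 18.8, 17.1 and 17.8 CPM in the injected masseter (0.49 ± 0.12, adjusted p = 0.0203), and missed the threshold without referred library 1 or 2 or injected library 2 or 3 (adjusted p 0.0622 to 0.078). Hcn2, a pacemaker channel, had 3.49, 3.51 and 2.87 CPM in the referred masseter and 5.72, 6.87 and 5.25 CPM in the injected masseter (-0.85 ± 0.19, adjusted p = 0.0101).

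Other genes were higher in the referred masseter. Col2a1, the cartilage collagen (chromosome 15, 97975602 to 98004724), had the largest rise among genes named by rule, with 12.1, 31.0 and 21.7 CPM in the referred masseter, against 1.16, 4.65 and 0.826 CPM in the injected masseter (3.28 ± 0.76, adjusted p = 0.0134). The other 11 masseter libraries had 0.182 to 4.17 CPM, and the saline-subtracted difference was 4.38 (adjusted p = 0.0418). The call was lost without referred library 2, injected library 1 or injected library 3 (adjusted p 0.0554 to 0.0588), and the difference was 4.43 without injected library 2. Col2a1 was the only one of 13 cartilage and tenocyte markers called, and the list summed to 242 to 535 CPM in the referred masseter and 369 to 1300 CPM in the injected masseter, with overlap. Dmp1, a matrix protein of osteocytes, had 6.09, 12.6 and 10.3 CPM in the referred masseter and 2.57, 5.59 and 3.26 CPM in the injected masseter (1.34 ± 0.40, adjusted p = 0.0433). It was the only one of 11 bone markers called, but all 11 were above 0. The bone markers summed to 214, 509 and 522 CPM in the referred masseter and 74.2, 338 and 130 CPM in the injected masseter, and 12 neutrophil markers, all above 0 with none called by edgeR or DESeq2 and 3 at an unadjusted p under 0.05, summed to 80.3, 720 and 334 CPM in the referred masseter and 25.6, 195 and 23.3 CPM in the injected masseter. The part of attached bone or marrow in these values was not tested. Over all genes tested, 6.52% were called higher. Without the libraries that held gland transcripts no cartilage or bone marker was called. The Dmp1 call was lost without referred library 2 or 3 or injected library 1 or 3 (adjusted p 0.103 to 0.165).

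A pair of very large genes of the Fraser complex, which anchors epithelia to their basement membrane, were higher together. Frem2 had 23.1, 19.4 and 23.2 CPM in the referred masseter, against 7.38, 4.11 and 4.63 CPM in the injected masseter (2.03 ± 0.39, adjusted p = 0.00519). Fras1 had 15.2, 21.1 and 17.02 CPM in the referred masseter and 7.55, 5.47 and 2.23 CPM in the injected masseter (1.80 ± 0.45, adjusted p = 0.0192), and missed the threshold without referred library 2 or injected library 2 or 3 (adjusted p 0.056 to 0.0715). Fat3, a giant cadherin, had 7.96, 10.3 and 11.7 CPM in the referred masseter and 1.87, 3.70 and 2.60 CPM in the injected masseter (1.87 ± 0.46, adjusted p = 0.0169), and missed the threshold without referred library 2 or injected library 1 or 3 (adjusted p 0.0535 to 0.0735). The groups of all 3 genes were apart in every library, which the rule that chose them required. Saline day 28 lay at 14.8 to 25.4 CPM for Frem2 and at 12.5 to 16.8 CPM for Fras1, close to the referred masseter, and at 1.24 to 4.62 CPM for Fat3, close to the injected masseter.

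Several of the largest rises chosen by rule had saline day 28 on the referred side. Kcnc4, a fast-acting potassium channel subunit, had 94.9, 123 and 104 CPM in the referred masseter and 41.5, 33.4 and 21.1 CPM in the injected masseter (1.75 ± 0.40, adjusted p = 0.0133), and missed the threshold without referred library 2 or injected library 3 (adjusted p = 0.0503 and 0.0585). Ak4, a mitochondrial adenylate kinase, had 17.1, 26.3 and 25.0 CPM in the referred masseter and 4.73, 4.19 and 6.53 CPM in the injected masseter (2.15 ± 0.47, adjusted p = 0.0103). Neither gene overlapped between the groups, which the rule that chose them required. The saline differences of Kcnc4 and Ak4 were 1.86 and 2.02 log2 units. Dhtkd1, an enzyme of lysine breakdown, had 6.39, 5.18 and 3.67 CPM in the referred masseter and 1.78, 1.07 and 0.785 CPM in the injected masseter (2.06 ± 0.32, adjusted p = 0.0015). Cyfip2, a regulator of actin branching, had 11.3, 17.8 and 26.3 CPM in the referred masseter and 3.90, 6.46 and 5.33 CPM in the injected masseter (1.82 ± 0.53, adjusted p = 0.0383), a call kept only when referred library 1 was the library left out (adjusted p 0.0741 to 0.134 otherwise).

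Clock genes were higher in 3 members. Of 19 circadian genes tested, Nr1d1, Nr1d2 and Per3 were higher, against 6.52% of all genes, and none was lower. With injected day 52 in place of day 38 none was called, and Nr1d2 alone was called without both libraries that held gland transcripts. Nr1d2, a nuclear receptor of the clock, had 199, 242 and 198 CPM in the referred masseter, against 103, 117 and 96.8 CPM in the injected masseter (1.01 ± 0.18, adjusted p = 0.00402). Nr1d1, its close relative, had 329, 315 and 266 CPM in the referred masseter and 234, 174 and 146 CPM in the injected masseter (0.72 ± 0.22, adjusted p = 0.0457). Per3, a period gene, had 40.9, 65.6 and 45.8 CPM in the referred masseter and 20.6, 22.1 and 14.6 CPM in the injected masseter (1.41 ± 0.41, adjusted p = 0.0392). The Per3 call was lost without any one library (adjusted p 0.0619 to 0.147), and the Nr1d1 call was lost without any one library other than injected library 1 (adjusted p 0.057 to 0.159). Ttc14, a gene of unsettled role, had 62.7, 58.2 and 45.1 CPM in the referred masseter and 16.1, 17.5 and 14.3 CPM in the injected masseter (1.79 ± 0.25, adjusted p = 0.00084), and 1.37 after subtracting the saline difference (adjusted p = 0.0428). The labels used here do not give the time of day of tissue collection, and its part in these values was not tested.

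**Figure D5:**
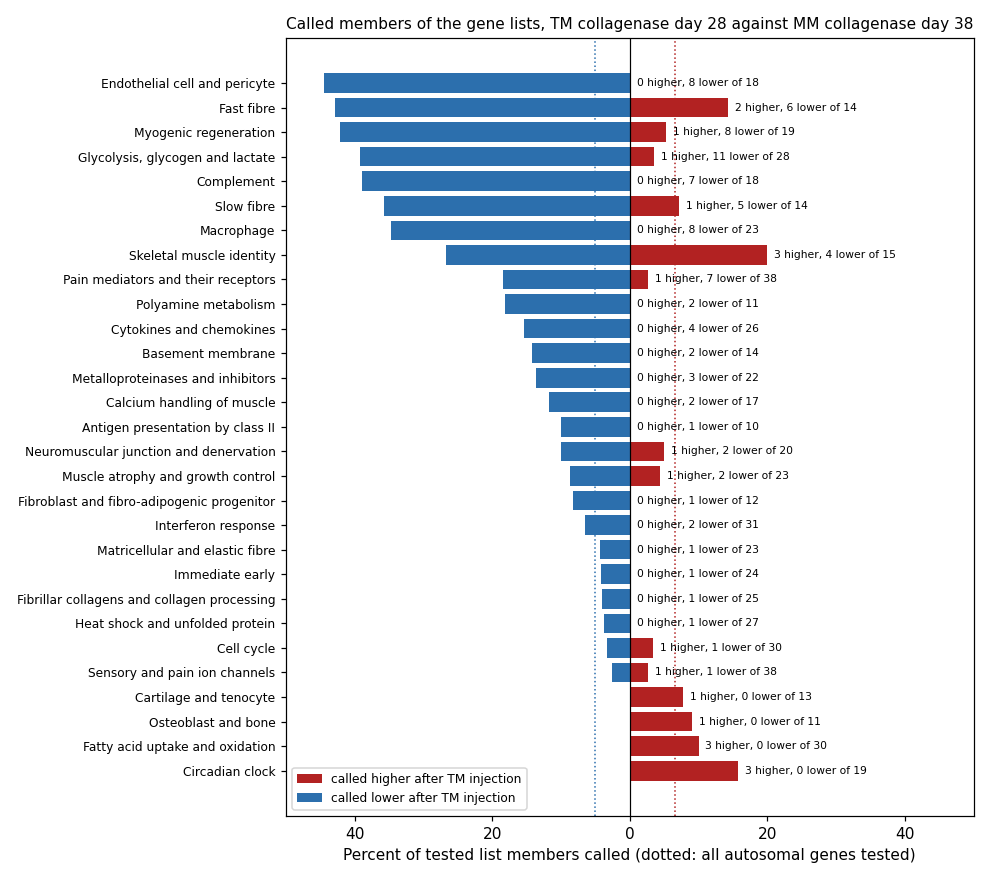
Share of each list's tested genes called higher (red, right) or lower (blue, left) in the referred masseter (TM col day 28) against the injected masseter (MM col day 38), for the lists with at least 1 called gene, with the counts written beside each bar. Dotted lines mark the shares of all autosomal genes tested, 6.52% higher and 5.11% lower; vessel, fast fibre, regeneration, glycolysis and complement lists reach furthest to the left.

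Several other lists held few or no calls. None of 17 glucocorticoid response genes, 14 adipocyte markers, 12 Schwann cell and myelin markers, 10 mast cell markers or 10 B and plasma cell markers passed edgeR's test or that of DESeq2 or limma voom. A fit of the 6 libraries alone called 1 glucocorticoid gene higher and 3 lower and 1 B and plasma cell marker higher, the fit without saline day 28 called 1 B and plasma cell marker higher, and with injected day 52 in place of day 38 4 glucocorticoid genes were lower. An unadjusted p under 0.05 was found for 4 of the glucocorticoid genes, 2 of the adipocyte markers, 1 of the mast cell markers and none of the other markers. Of 30 cell cycle genes 1 was higher and 1 lower, against 6.52% and 5.11% of all genes, and none was called without the libraries that held gland transcripts. Of 20 genes of the neuromuscular junction and denervation 1 was higher and 2 were lower, against the same shares of all genes. The 2 lower were Chrng and Myog, which the regeneration list also counts. The counts were the same without the libraries that held gland transcripts. The adipocyte markers were all below 0 and summed to 622, 542 and 673 CPM in the referred masseter and 534, 2172 and 694 CPM in the injected masseter, so that injected library 2 alone stood high, and without it 7 of the 14 were below 0.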

How the data were processed

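RNA was read from whole muscle with a stranded TruSeq mRNA kit, per the labels' protocols. The submitters' processing notes name bcl2fastq, Trim Galore, RSEM and the mouse build mm10, with no versions or settings used here. Each deposited file holds, per gene symbol, the authors' RSEM expected counts and TPM. Expected counts were rounded to whole numbers before testing, and counts that RSEM divides among near-identical copies are uncertain. Symbols were placed on chromosomes through RefSeq: 23347 of 23412 were placed, and genes on chromosomes X and Y were tested but are not reported.

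All 17 masseter libraries in 5 groups were fitted together with edgeR 4.0.16 (R 4.3.3): filterByExpr, TMM scaling, quasi-likelihood tests, and Benjamini-Hochberg adjustment over 14652 genes, called at an adjusted p under 0.05. CPM values use the TMM-scaled library sizes, fold changes are on the log2 scale, and ± in brackets is a standard error. Counting intervals are exact and cover counting error only. The alternatives were DESeq2 1.42.0, limma 3.58.1 on voom values and on log2(TPM + 0.5) or log2(TPM + 0.05), other scalings and filters, other sets of libraries, and each library left out in turn. The scripts were tested on simulated data. Genes named without a list are the 15 largest rises and 15 largest falls among called, non-overlapping genes with at least 1 log2 unit and at least 5 CPM in one group; from each of 39 gene lists, up to 4 called members with the smallest p could be named. Members called beyond those, and Vegfa, Amd1, Neat1, Leng8, Clk1 and Nnt, were named after their values were seen. The 6 libraries, the lists and the tests were chosen with earlier results of these data known. None of the replicate pairs within a group agreed within sampling noise. Libraries of other tissues were not used here. Some genes of the lists and the naming rule are not reported here.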

Additional observations from a re-analysis of the deposited data

Results flagged for a closer look

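Among 60 sets of 4 saline libraries examined, each for 1 gene, 3 held a library far from the others of its group, where chance flags about 1 in 20 by Dixon's test. For Chrng, saline day 38 library 2 had 0.250 CPM, against 0.0415 to 0.0701 CPM in the other 3. For Slc15a5, saline day 28 library 2 had 1.22 CPM, against 0 to 0.207 CPM in the other 3. For Vash2, saline day 38 library 1 had 12.9 CPM, against 5.48 to 6.42 CPM in the other 3.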

How the results depend on the processing

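The count of 1646 genes stayed within 1.5 times under other scalings, filters, DESeq2 (2243), limma voom (1666) and a fit of the 6 libraries alone (2260). With injected day 52 it was 535 (184 higher and 351 lower). Without both libraries holding gland transcripts it was 340 (155 and 185). With the saline difference subtracted it was 305 (161 and 144), which was 164 with no filter and 103 to 781 with 1 saline library left out. With 1 compared library left out it was 749 to 1232, with 423 to 686 higher and 326 to 546 lower. The count of 3474 between the saline groups was 2198 to 3605 with 1 saline library left out. Genes called lower numbered 93 on log2(TPM + 0.5), 102 on log2(TPM + 0.05) and 1098 without the saline day 28 group, and with TPM medians made equal 610 were called higher.

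With the saline difference subtracted, signs turned for Myh4 (1.56), Myh2 (-2.13), Myh7 (-0.59), Mybpc2 (0.13), Csrp3 (-1.88), Casq2 (-0.52), Gapdh (2.14), Pgam2 (0.27), Slc30a2 (0.69), Mettl21c (0.65), Trpm1 (0.27), Ccl2 (0.42), Col3a1 (0.87), Kcnc4 (-0.11) and Actc1 (0.61), in log2 units. With injected day 52 they turned for Ptgs2 (-0.24), Col3a1 (0.24) and Neat1 (-0.38). The cause was not tested. Of 82 single genes, 15 lost their call on log2(TPM + 0.5), 6 with limma voom and 34 with injected day 52.

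With 3 libraries a group, and 1 in each holding gland transcripts, depth was not the only limit. Genes under about 0.1 CPM rest on a few counts per library. No paired analysis was possible because the labels give no pairing of libraries between the compared groups.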

Other observations

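Neat1, Leng8 and Clk1 were higher in the referred masseter. They were named after their values were seen and belong to no list tested here. Neat1, the RNA that builds paraspeckles, had 1281, 907 and 809 CPM in the referred masseter, against 480, 406 and 228 CPM in the injected masseter (1.43 ± 0.37 log2 units, adjusted p = 0.0213), but 973 to 1583 CPM in the injected masseter at day 52. Leng8 had 166, 118 and 92.7 CPM in the referred masseter and 53.4, 49.2 and 34.8 CPM in the injected masseter (1.45 ± 0.25, adjusted p = 0.00301). Clk1, a kinase of splicing factors, had 130, 124 and 85.9 CPM in the referred masseter and 47.9, 51.1 and 32.8 CPM in the injected masseter (1.37 ± 0.31, adjusted p = 0.0129). Without both libraries that held gland transcripts none of the 3 was called (adjusted p 0.0585 to 0.235).

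Nnt, the mitochondrial transhydrogenase, of which C57BL/6J mice carry a deletion of several exons, had 43.3, 38.0 and 35.5 CPM in the referred masseter, against 16.0, 11.4 and 17.6 CPM in the injected masseter (1.38 ± 0.16, adjusted p = 0.000305). Saline day 28 had 26.2 to 39.6 CPM, whereas injected day 52 had 14.0 to 16.2 CPM and saline day 38 had 13.4 to 15.6 CPM. The groups of libraries with high and low Nnt are those with high and low Xist. The strain was not given in the labels used here, and its part in these values was not tested.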
